A study of Homo sapiens with 6 samples.

Results

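Activator protein 1 (AP-1) is a family of transcription factors that bind DNA as pairs through a basic region and a leucine zipper (bZIP). The 10 AP-1 genes described here were taken by symbol from a table of read counts with 42656 gene rows. They are the FOS family (FOS, FOSB, FOSL1, FOSL2), the JUN family (JUN, JUNB, JUND) and the related bZIP genes ATF3, BATF3 and MAFF. All 10 had a row. RNA was sequenced from TOV21G, an established cell line labelled as ovarian clear cell carcinoma. Cells carried a scrambled control hairpin (shCtrl, genotype label WT) or a hairpin against the RNA-binding protein MEX3A (shMEX3A, genotype label MEX3A knockdown), with 3 libraries in each group. All cells grew in medium with 15% serum, received lentivirus at a multiplicity of infection of 50 and were harvested on day 3. The comparison asks how mRNA levels differ when MEX3A is depleted. Each group used a single hairpin, so effects of MEX3A loss and other effects of that hairpin cannot be told apart. Whether the 3 libraries of a group were grown as separate cultures is not in the labels. The p-values below therefore weigh differences against a spread among libraries that may be only technical.

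FOS proteins cannot pair with each other and bind DNA with a JUN partner, while JUN proteins also pair among themselves. The pairs bind the sequence TGANTCA or the longer cyclic AMP response element. FOS, FOSB, JUN, JUNB and ATF3 are textbook immediate early genes, switched on within minutes by serum, growth factors or stress through MAP kinases and serum response factor. Their mRNAs are short-lived, in part through AU-rich elements at the 3' end. In carcinoma cells, FOSL1 and FOSL2 are known as the FOS proteins that stay on when growth signals persist.

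RefSeq promoter windows (GRCh38.p14) were found for 8 of the 10 genes, with none for FOSL1 and BATF3. The 250 bases before each start were searched on both strands for TGANTCA, TGACNTCA (which holds the cyclic AMP response element), the CArG box bound by serum response factor, and the half-site TGACG. This half-site can lie inside a TGACNTCA match and was added after the windows had been read. The windows below are 60 bases, 5′ to 3′ on the gene's strand, each placed around a match to TGACNTCA or TGACG. Capitals mark a TGACNTCA match for JUN, JUND, ATF3 and MAFF, and the TGACG nearest the start for FOS, FOSB, FOSL2 and JUNB.
JUN, chr1:58784081-58784140, minus strand: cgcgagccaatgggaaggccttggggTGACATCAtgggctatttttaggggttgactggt
JUND, chr19:18281789-18281848, minus strand: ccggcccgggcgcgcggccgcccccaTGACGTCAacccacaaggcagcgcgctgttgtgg
ATF3, chr1:212565258-212565317, plus strand: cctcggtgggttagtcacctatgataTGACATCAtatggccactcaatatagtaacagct
MAFF, chr22:38201914-38201973, plus strand: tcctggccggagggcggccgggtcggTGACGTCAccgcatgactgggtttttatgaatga
FOS, chr14:75278736-75278795, plus strand: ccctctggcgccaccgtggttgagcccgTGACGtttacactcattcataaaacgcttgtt
FOSB, chr19:45467908-45467967, plus strand: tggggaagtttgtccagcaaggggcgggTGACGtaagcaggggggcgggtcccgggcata
FOSL2, chr2:28392764-28392823, plus strand: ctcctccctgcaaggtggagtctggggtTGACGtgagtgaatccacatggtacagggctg
JUNB, chr19:12791321-12791380, plus strand: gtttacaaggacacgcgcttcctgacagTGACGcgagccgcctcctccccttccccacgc

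The 8 genes have 10 promoter windows in the RefSeq table, since ATF3 and MAFF each have a further start, whose window held none of these motifs. A TGACNTCA match was present in 4 of the 10 windows, those of 4 genes, against 6.87% of 35093 promoter windows of the same length. The match in JUN ended 60 bases before the RefSeq start, and that in MAFF 47 bases before it. The half-site was present in 7 of the 10 windows, those of every gene but ATF3, against 21.2% of all windows. Its matches nearest the start in FOS, FOSB and FOSL2 began 64, 60 and 66 bases before the start. TGANTCA was in 0 of the 10 and 6.57% of all windows, and the CArG box in 0 of the 10 and 1.16%. Bases further upstream than 250 were not searched, so a 0 here does not mean that a gene lacks the motif. A match describes letters in these windows and is not a measured binding site.

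MEX3A itself lay between 67.6 and 70.7 in shCtrl, in CPM (read counts scaled to a common library size) and between 19.6 and 22.2 CPM in shMEX3A. Library totals ran from 34662635 to 48228216 counts. Most tested genes differed between the groups. With the quasi-likelihood test of edgeR and Benjamini-Hochberg adjustment over 15679 tested genes, 69.7% passed an adjusted p of 0.05, 34.0% as higher and 35.6% as lower in shMEX3A. Across the tested genes the median log2 fold change was -0.01. Counts from mitochondrially encoded genes were 2.14% to 2.28% of each shCtrl library and 3.84% to 4.14% of each shMEX3A library, and with these genes left out the same number of AP-1 genes was called higher. All 11 clear cell and epithelial markers passed the filter, with a summed level of 1542 to 1580 CPM in shCtrl and 1843 to 1893 CPM in shMEX3A. Of these 11, 6 were called higher and 3 lower. The sum moved mainly with TFPI2, which went from 69.0 ± 3.08 to 605 ± 10.7 CPM, and against ANXA4, which went from 652 ± 19.0 to 214 ± 5.65 CPM. PAX8 (192 ± 4.11 CPM in shCtrl, SD, n = 3), KRT8 and KRT18 were well detected. In shCtrl, EPCAM (5.71 ± 0.11 CPM), KRT19 (2.90 ± 0.91 CPM) and KRT7 (2.64 ± 0.82 CPM) were low, and NAPSA was near 0 at 0.41 ± 0.15 CPM. Markers of other cells were low. The summed level of 8 leukocyte markers was 7.64 to 8.72 CPM in shCtrl and 10.6 to 11.1 CPM in shMEX3A, most of it CD68, with CD3E and MS4A1 at 0 counts in every library. For 8 fibroblast markers it was 5.61 to 5.92 and 9.04 to 11.3 CPM, most of it DCN. For 6 endothelial markers it was 0.595 to 0.723 and 0.679 to 0.993 CPM, with KDR and CLDN5 at 0 counts. Among the tested markers of these lists, CD68, DCN, ITGAM and CDH5 were called higher, and THY1 and PECAM1 were not called. ITGAM went from 0.66 ± 0.21 to 2.01 ± 0.14 CPM and CDH5 from 0.042 ± 0.016 to 0.43 ± 0.12 CPM. The part of these low levels in the results was not tested.

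Every FOS and JUN family gene was called higher after MEX3A depletion. Of the 10 AP-1 genes, 9 passed the low-count filter. Among these 9, 7 were called higher, against the 34.0% of all tested genes, and 0 lower, against 35.6%. The genes were chosen with earlier results of these data known, so this contrast is a description with no test. DESeq2 and limma voom, run only on genes that passed this filter, also called 0 lower. Of the 9, 0 had an unadjusted p under 0.05 in that direction. ATF3 and MAFF did not pass the test, and BATF3 was too weakly expressed to be tested. The 5 alternative fits that did test BATF3 all called it lower, on the few counts given below. The 3 libraries of each group did not overlap for 7 of the 9 genes, a share close to the 72.3% of all tested genes. These are not the same 7 genes: they include ATF3, which lay lower in shMEX3A, and leave out FOSB, which overlapped. The median log2 fold change of the 9 was 0.80. In bulk RNA, more cells with a high level and more mRNA per cell cannot be told apart.

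**Figure D1:**
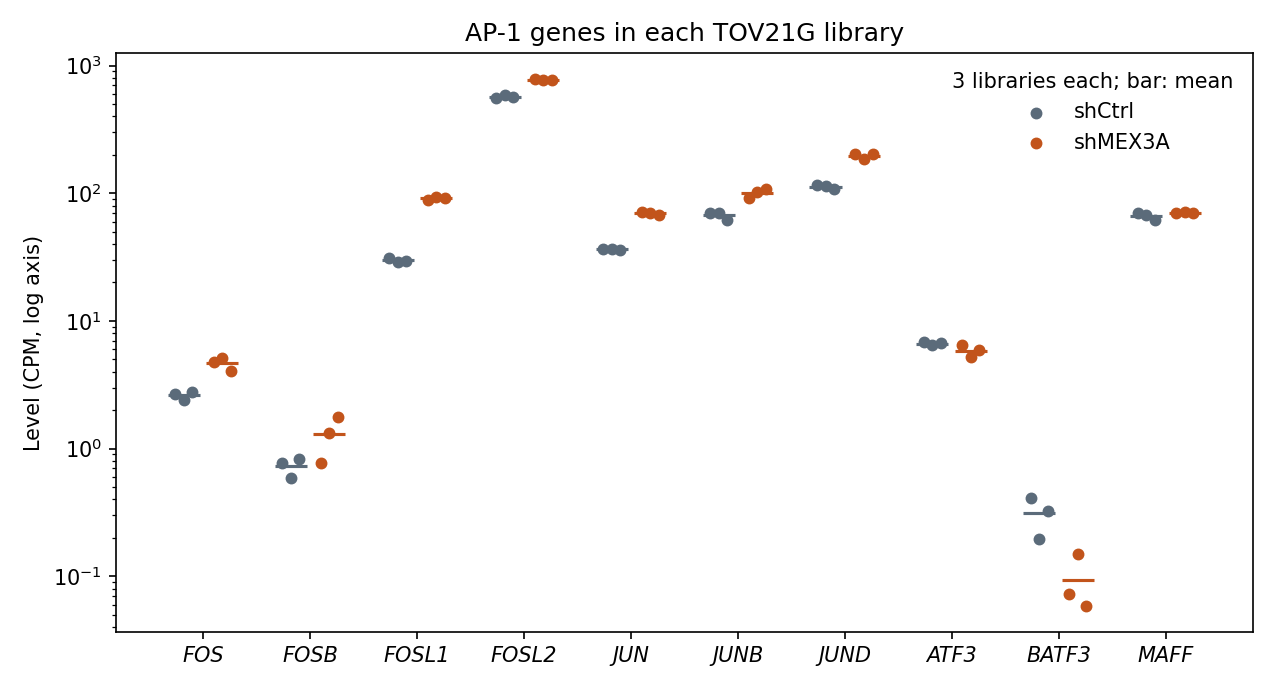
Level of each AP-1 gene in CPM (log axis) in the 3 shCtrl and 3 shMEX3A libraries, with a bar at each group's mean. The libraries of FOSL1, FOSL2, JUN, JUNB, JUND and FOS lie higher in shMEX3A without overlap, and those of ATF3 lie lower without overlap. Those of FOSB and MAFF overlap, and BATF3 lies under 1 CPM throughout.

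FOSL1, which encodes the FRA1 protein tied to invasion and migration of carcinoma cells, rose most of the 9. Its level was 31.3, 29.1 and 29.3 CPM in the shCtrl libraries and 88.5, 92.8 and 92.0 CPM in the shMEX3A libraries. The lowest depleted library was thus far above the highest control library. This was a 3.04-fold rise, with a log2 fold change of 1.61 (SE 0.041) and an adjusted p of 2.85e-29 in the edgeR test. FOSL1 stood at the 97.7th percentile of log2 fold changes among tested genes. Its 95% confidence interval, 1.52 to 1.69, shared no value with that of any other AP-1 gene tested. In GENCODE 29 (GRCh38), FOSL1 spans chromosome 11 from 65892049 to 65900573, minus strand.

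FOSL2, which encodes FRA2, was the most abundant FOS family gene and had the smallest of the called rises. It was at 555, 587 and 568 CPM in shCtrl and 779.8, 769 and 776 CPM in shMEX3A. The groups stood apart, although the rise was only 1.36-fold (log2 fold change 0.44, SE 0.029, adjusted p = 3.00e-16, edgeR). Its coefficient of variation was 2.85% in shCtrl and 0.701% in shMEX3A. FOSL2 lies on chromosome 2 from 28392448 to 28417312.

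FOS and FOSB, the rapidly induced members with strong activation domains, were low in both groups. FOS was at 2.68, 2.40 and 2.77 CPM in shCtrl, from 117, 85 and 111 counts, and at 4.79, 5.10 and 4.04 CPM in shMEX3A, from 198, 240 and 137 counts. All 3 depleted libraries were above all 3 controls (log2 fold change 0.83, SE 0.13, adjusted p = 3.75e-07, edgeR). FOSB was at 0.778, 0.592 and 0.823 CPM in shCtrl and 0.775, 1.34 and 1.77 CPM in shMEX3A. One depleted library, replicate 1, thus lay within the controls. FOSB was called higher (0.80, SE 0.27, adjusted p = 0.00884), and the call was lost without shMEX3A replicate 3 (0.53, adjusted p = 0.115). With a filter of at least 1 CPM, FOSB was not tested. The coefficient of variation of FOSB in shMEX3A was 38.6%, against a median of 4.59% over all tested genes. FOS lies on chromosome 14 from 75278774 to 75282230 and FOSB on chromosome 19 from 45467995 to 45475179, both on the plus strand.

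JUN, which pairs with FOS proteins and with other JUN proteins, nearly doubled. It was at 36.8, 36.9 and 35.9 CPM in shCtrl and 70.7, 69.8 and 67.9 CPM in shMEX3A. Neither group spread by more than a few CPM, and the gap between them was far wider. The rise was 1.90-fold (log2 fold change 0.93, SE 0.040, adjusted p = 4.46e-22, edgeR). The gene is a single exon on chromosome 1 from 58780788 to 58784327, and its promoter window above holds TGACATCA, a site JUN is known to use on its own gene.

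JUND, which is made steadily in most cells and is known to restrain growth in many settings, was the most abundant JUN family gene. Its values were 115, 113 and 109 CPM in shCtrl and 203, 184 and 203 CPM in shMEX3A, again without overlap. It rose 1.75-fold (log2 fold change 0.81, SE 0.037, adjusted p = 8.23e-19, edgeR). JUNB, a weaker activator that can oppose JUN, was at 70.3, 69.6 and 61.6 CPM in shCtrl and 92.0, 102 and 109 CPM in shMEX3A. JUNB rose with a wider error (log2 fold change 0.59, SE 0.076, adjusted p = 0.000273). Of its exon bases, 14.2% lie under exons of HOOK2 on the other strand, and the strand setting of the counting is not given in the sources used here. HOOK2 itself went from 22.5 ± 0.28 to 17.9 ± 0.48 CPM, a log2 fold change of -0.33. No other AP-1 gene had exon bases under another gene. JUNB lies on chromosome 19 from 12791496 to 12793315 and JUND from 18279760 to 18281622, each as 1 exon.

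ATF3, a stress-induced factor that often represses, did not join the rise. It was at 6.79, 6.52 and 6.66 CPM in shCtrl and 6.47, 5.24 and 5.87 CPM in shMEX3A. The depleted libraries were all lower, one of them by a margin no wider than the control spread (log2 fold change -0.19, SE 0.096, 95% confidence interval -0.38 to 0.01, adjusted p = 0.0782, edgeR). ATF3 passed the threshold only without shMEX3A replicate 1 (-0.27, adjusted p = 0.0286), and its adjusted p over all alternatives ran from 0.0286 to 0.378. It lies on chromosome 1 from 212565334 to 212620777.

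MAFF, a small MAF protein that lacks an activation domain and pairs with NRF2 and other bZIP proteins, was at 70.4, 67.9 and 62.0 CPM in shCtrl and 70.5, 70.9 and 70.1 CPM in shMEX3A. The groups overlapped, and the 95% confidence interval of the log2 fold change ran from -0.0036 to 0.16 (estimate 0.08, adjusted p = 0.0828, edgeR). A called rise of 0.12 appeared without shCtrl replicate 1 (adjusted p = 0.0106), and one of 0.09 with a filter of at least 1 CPM (adjusted p = 0.0323). On the genes with a known GC content alone, a set also chosen after seeing the data, the rise was 0.10 (adjusted p = 0.0259). With offsets for GC content and length on those genes the estimate was -0.03. MAFF lies on chromosome 22 from 38200767 to 38216511.

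BATF3, best known for its role in dendritic cells, lay next to the limit of detection. It had 18, 7 and 13 counts in shCtrl and 3, 7 and 2 counts in shMEX3A. In CPM the groups did not overlap, at 0.197 to 0.412 against 0.059 to 0.149. BATF3 did not pass the low-count filter, and 5 of the 16 alternative fits tested it. Without the filter its log2 fold change was -1.68 (adjusted p = 0.013, edgeR), and the 4 fits that tested it with a library left out gave -1.46 to -2.20. All 5 of these fits called it lower, with adjusted p from 0.00424 to 0.0312 when a library was left out (edgeR). BATF3 lies near ATF3 on chromosome 1, from 212686418 to 212699985.

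**Figure D2:**
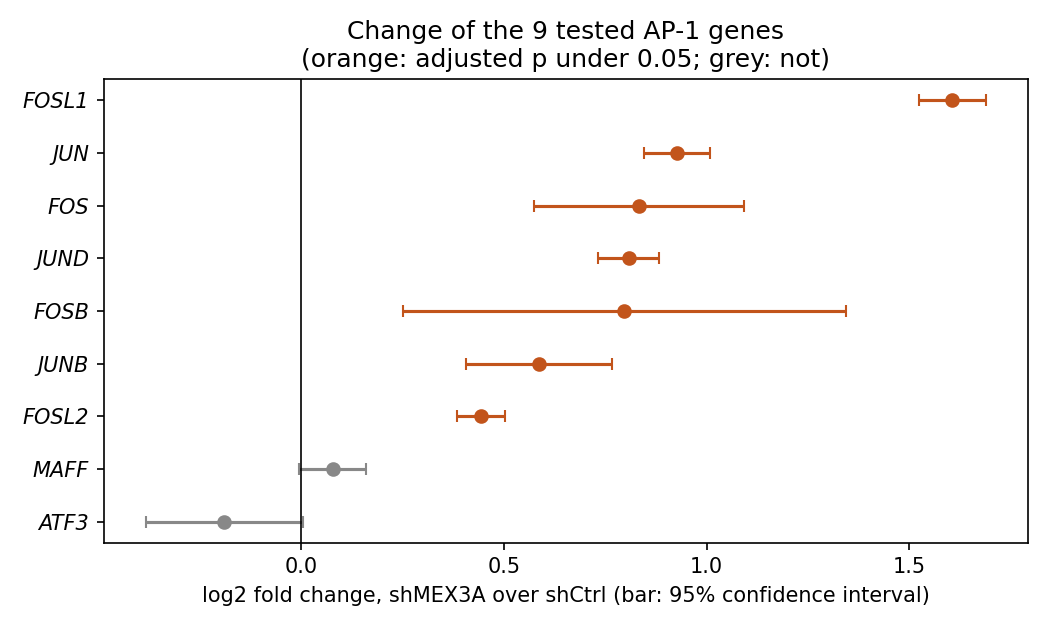
Log2 fold change of the 9 tested AP-1 genes in shMEX3A over shCtrl, with 95% confidence intervals, in orange where the adjusted p was under 0.05. FOSL1 stands alone at 1.61, the other FOS and JUN genes lie between 0.44 and 0.93, and the intervals of MAFF and ATF3 include 0.

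Levels of different genes were compared per kilobase of exon (CPM per kb, exon lengths from GENCODE 29). In shCtrl the order was FOSL2 (83.9 ± 2.39, SD, n = 3), JUND (60.2 ± 1.76), JUNB (36.9 ± 2.65), MAFF (24.2 ± 1.58), FOSL1 (16.3 ± 0.66), JUN (10.3 ± 0.15), ATF3 (2.62 ± 0.054), FOS (0.890 ± 0.066), BATF3 and FOSB. Every neighbour in this order was apart in all shCtrl libraries. In shMEX3A, FOSL1 at 49.5 ± 1.3 CPM per kb had passed MAFF at 25.6 ± 0.15 and stood just below JUNB at 55.5 ± 4.66. The other changed places were FOSB and BATF3, whose libraries overlapped there. The immediate early gene FOS thus made up 0.340% to 0.471% of the summed level of the 10 genes in each library, and FOSL2, JUND and JUNB most of it.

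The summed level of the 10 genes went from 236 ± 6.41 to 374 ± 6.71 CPM per kb. The FOS family went from 101 ± 1.78 to 165 ± 0.66, the JUN family from 107 ± 4.52 to 181 ± 6.59, and ATF3, BATF3 and MAFF together from 27.2 ± 1.62 to 28.0 ± 0.20 CPM per kb. As shares of the sum, FOSL1 was 7.11%, 6.60% and 6.97% in the shCtrl libraries and 12.9%, 13.7% and 13.1% in the shMEX3A libraries. The share of FOSL2 was 34.1%, 36.0% and 36.6% against 30.8%, 30.7% and 29.9%. FOSL1 therefore held a larger part of the summed level of the 10 genes in shMEX3A, while FOSL2 still led the FOS family. The FOS family as a whole was 42.9% ± 1.19 of the sum in shCtrl and 44.2% ± 0.74 in shMEX3A, with overlapping libraries. The JUN family was 45.6% ± 0.76 and 48.3% ± 0.89. These shares and sums are descriptions with no test.

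**Figure D3:**
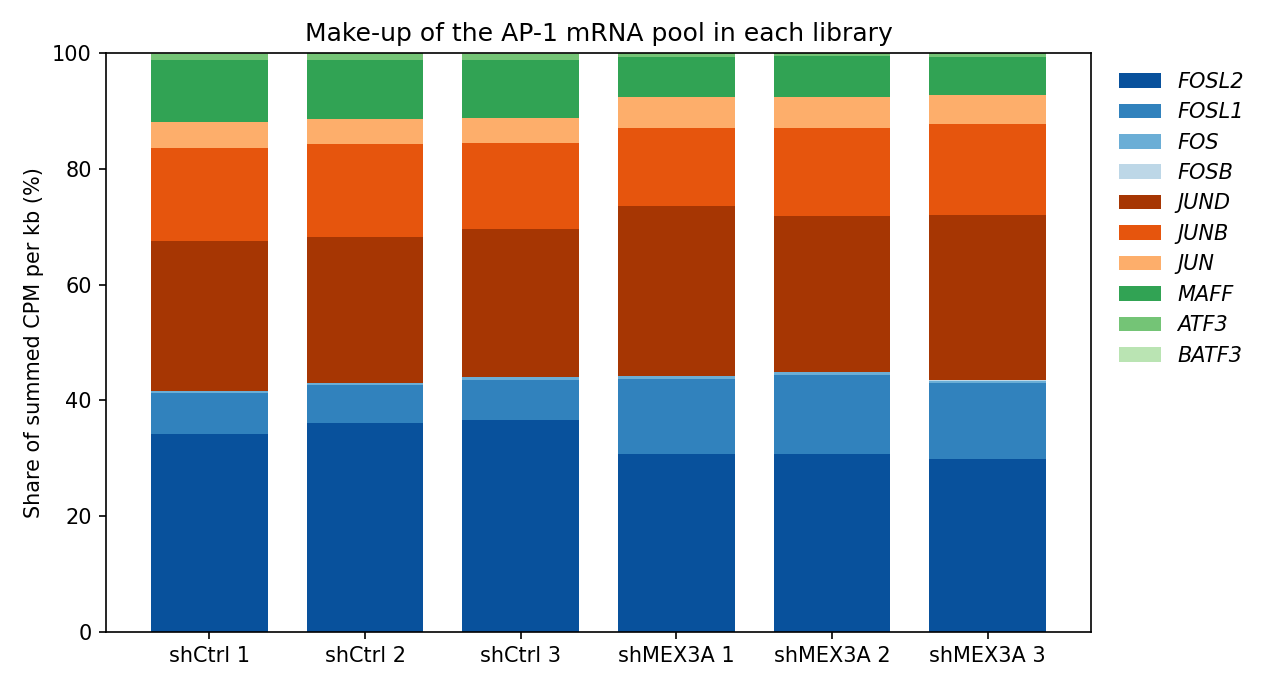
Share of each AP-1 gene in the summed CPM per kb of the 10 genes, one bar per library. The FOSL1 segment is 6.60% to 7.11% in shCtrl and 12.9% to 13.7% in shMEX3A, the MAFF segment is smaller in shMEX3A, and FOSL2 and JUND are the largest segments in all 6 libraries.

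All 10 AP-1 mRNAs held the AU-rich pentamer ATTTA in the 3' UTR of their longest basic coding transcript in GENCODE 29, as did 72.0% of 12997 tested genes with a 3' UTR. Its number ran from 1 in FOSL1, JUND and BATF3 to 9 in FOSL2. Per kilobase it was densest in FOS (6.20) and JUNB (4.0), against a median of 2.33 over the 9 tested AP-1 genes and 1.63 over all tested genes. The nonamer TTATTTATT was found in FOS, FOSL2 and MAFF, and in 9.23% of tested genes. FOSL1, with the largest rise, held a single pentamer in a 3' UTR of 666 bases. MAFF, which was not called, held 4 pentamers in 1633 bases. FOS and JUNB, where the pentamer was densest, were both called higher. Whether the number or density of pentamers goes with the change in level was not tested.

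Among other bZIP genes that pair with AP-1 proteins, 13 of 17 listed were tested, and 7 were called higher and 5 lower, with a median log2 fold change of 0.17. The background was 34.0% of tested genes higher and 35.6% lower, to which the lower count is close. MAFK, a small MAF protein like MAFF, rose from 18.5 ± 0.33 to 42.7 ± 1.69 CPM, by 1.21 on the log2 scale (SE 0.051, adjusted p = 2.59e-22, edgeR). JDP2, a repressor that binds JUN, rose from 54.7 ± 1.44 to 89.0 ± 3.72 CPM (0.70, SE 0.039). NFE2L2, which encodes the antioxidant regulator NRF2, fell from 174 ± 3.31 to 87.5 ± 1.61 CPM (-0.99, SE 0.033). DDIT3, the stress factor CHOP, fell from 21.4 ± 1.49 to 10.9 ± 0.089 CPM (-0.97, SE 0.066). The third small MAF gene, MAFG, named after its value was seen, was called higher by 0.17, and its call was not followed through the alternative fits. In those fits the number of these bZIP genes called higher ran from 5, with GC and length offsets, to 7. The number called lower ran from 4 to 5.

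Genes of the MAP kinase cascades, which phosphorylate JUN, FOS proteins and the factors that switch them on, numbered 22, all tested. Of these, 11 were called higher, against a background of 34.0%, and 8 lower, a share near the background of 35.6%, and the median was 0.13. MAP2K3, which activates p38 kinases, rose from 49.3 ± 0.31 to 115 ± 2.50 CPM, by 1.22 on the log2 scale (SE 0.036, adjusted p = 5.04e-27, edgeR). MAP2K7, which activates JUN N-terminal kinases, rose from 26.6 ± 0.66 to 58.7 ± 0.44 CPM (1.14, SE 0.043). MAP2K6, another p38 activator, fell from 49.3 ± 0.96 to 30.4 ± 1.79 CPM (-0.70, SE 0.046), and RPS6KA5, the nuclear kinase MSK1, from 23.1 ± 0.54 to 11.9 ± 0.66 CPM (-0.96, SE 0.062).

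Serum response factor, its partners and other regulators of FOS and JUN transcription were higher in 7 and lower in 3 of 11 tested genes, with a median of 0.32, beside 34.0% and 35.6% of all tested genes. ELK3, a partner of serum response factor, rose from 38.7 ± 1.49 to 90.5 ± 1.55 CPM, by 1.22 on the log2 scale (SE 0.039, adjusted p = 3.66e-26, edgeR). MEF2D, which acts on the JUN promoter, rose from 92.7 ± 4.49 to 162 ± 3.19 CPM (0.80, SE 0.035), while MEF2A fell from 45.5 ± 1.16 to 34.8 ± 1.53 CPM (-0.38, SE 0.045). EGR1, an immediate early gene that shares serum response factor sites with FOS, did not move with FOS. It was at 37.1, 34.2 and 34.0 CPM in shCtrl and 26.9, 27.7 and 25.5 CPM in shMEX3A, a fall of 0.39 on the log2 scale (SE 0.051, adjusted p = 1.41e-08, edgeR).

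Proteins that bind AU-rich elements were higher in 4 and lower in 2 of 7 tested genes (background 34.0% and 35.6%), with a median of 0.19. ZFP36L1, which promotes decay of such mRNAs, rose from 451 ± 25.5 to 693 ± 13.0 CPM, by 0.62 on the log2 scale (SE 0.033, adjusted p = 7.52e-17, edgeR), and its relative ZFP36L2 fell from 67.2 ± 3.58 to 54.6 ± 1.20 CPM (-0.30, SE 0.040). TIA1, a translational repressor, rose by 0.77 (SE 0.044). Its relative TIAL1 was at -0.11 (adjusted p = 0.0104), a call lost without shMEX3A replicate 2 (-0.08, adjusted p = 0.0984) and with GC and length offsets (0.01, adjusted p = 0.846). ZFP36 is listed at 0 counts in all 6 libraries. How reads shared with other genes were counted is not given in the sources used here, so no level is read from that 0. Among 10 genes for the turnover of JUN and FOS proteins, 5 were higher and 1 lower (background 34.0% and 35.6%), with a median of 0.07. The lower count was 2 without shMEX3A replicate 2. DDB1, of the ligase that marks JUN, rose by 0.46 (SE 0.031) and the kinase GSK3B by 0.23 (SE 0.033), while the ligase STUB1 fell by 0.22 (SE 0.039).

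Of the textbook AP-1 target genes, 17 of 25 tested were called higher and 4 lower, beside 34.0% and 35.6% of all tested genes, and their median was 0.61. Many of them also answer to other factors, and some of their values were known when the list was made. The cytokine IL6 was at 27.0, 25.6 and 23.9 CPM in shCtrl and 85.9, 86.2 and 84.6 CPM in shMEX3A. Its libraries stood apart, with a rise of 1.75 on the log2 scale (SE 0.043, adjusted p = 9.81e-30, edgeR). The 4 lower genes included SPP1, VEGFA and CD44. SPP1, the matrix protein osteopontin, fell from 2841 ± 93.4 to 1443 ± 85.2 CPM (-0.98, SE 0.037). The 4 tested genes without a call were MMP1, CXCL8, AREG and TIMP1. MMP1, a collagenase named in most accounts of AP-1, was at 2.04, 0.649 and 0.948 CPM in shCtrl and 1.72, 0.127 and 0.826 CPM in shMEX3A, a spread far wider than the difference. MMP3, MMP9, MMP10, MMP13 and IVL were too low to be tested.

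**Figure D4:**
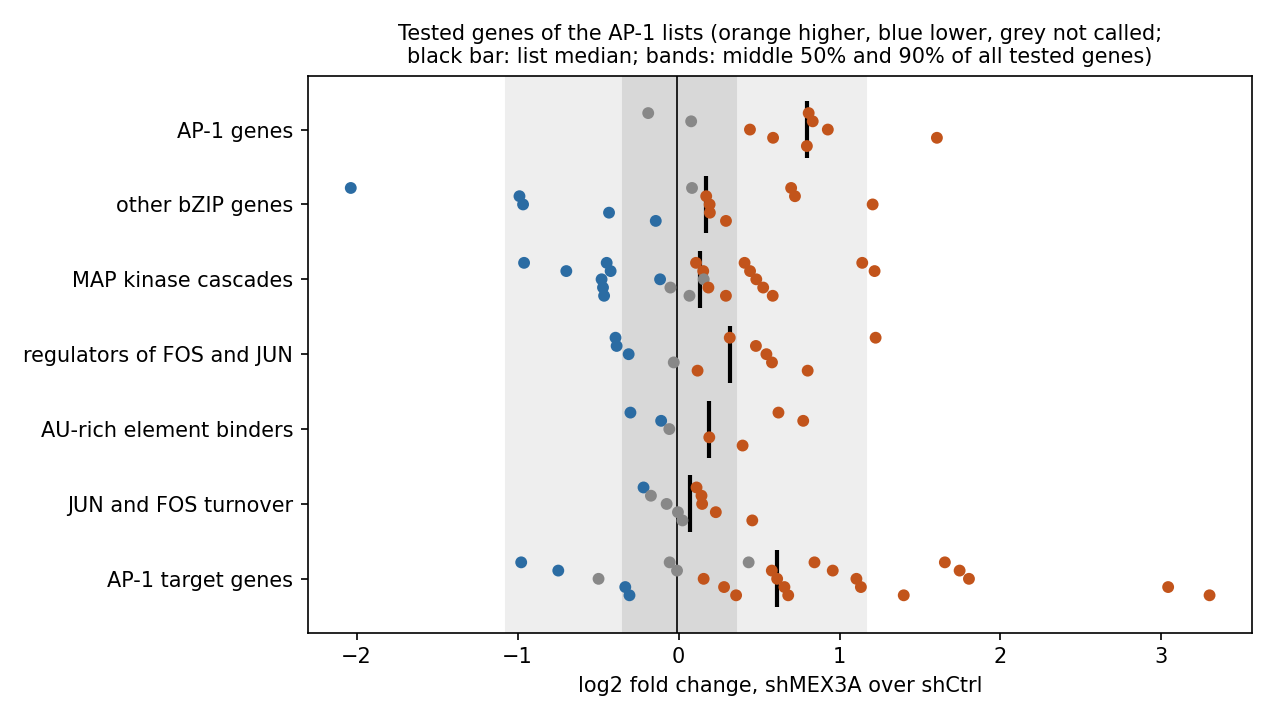
Log2 fold change of the tested AP-1 genes and of the tested genes in the 6 lists of related genes (orange called higher, blue called lower, grey not called), with a black bar at the list's median and grey bands for the middle 50% and 90% of all tested genes. The medians of the AP-1 genes (0.80) and AP-1 targets (0.61) lie above the middle band, whose upper edge is at 0.36, and the other 5 medians drawn lie inside it. Cell marker lists are not drawn.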

How the data were processed

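The authors deposited 1 table of raw read counts per gene. The submitters' processing notes name GRCh38 and the tools STAR, fastp 0.20.0, edgeR 4.0.16 and HTSeq 2.0.4. Not given in the sources used here are their roles, the strand setting, the annotation release and the version of STAR. Libraries of 1 group differed by more than sampling noise (chi-square per degree of freedom 2.69 to 6.15), so none was counted as a duplicate.

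These counts were fitted with edgeR 4.0.16 in R 4.3.3 (filterByExpr, TMM scaling, robust quasi-likelihood fit, group as the only term, 4 residual degrees of freedom). Benjamini-Hochberg adjustment ran over every tested gene, and calls needed an adjusted p under 0.05. CPM is scaled by TMM, so a rise or fall is relative to the other genes and carries no information on mRNA per cell. The script was tested on simulated data. Exon lengths, positions and 3' UTRs came from GENCODE 29 and promoters from RefSeq, both matched by symbol.

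The AP-1 genes and the gene lists were chosen with earlier results of these data known. All 10 AP-1 genes are named, and in each other list the 2 called genes with the smallest p in each direction, except for some that are not reported here. Genes named beyond this were chosen after their values were seen. Alternatives were other size factors, other low-count filters, DESeq2 1.42.0, limma 3.58.1 (voom), a replicate block, omission of mitochondrially encoded genes, omission of each library, and, added after seeing the data, offsets for GC content and length (natural splines with 5 degrees of freedom) and the same 14478 genes without offsets.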

Additional observations from a re-analysis of the deposited data

How the results depend on the processing

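The counts of genes higher (4969 to 5454) and lower (5122 to 5877) over all alternatives stayed within 1.5-fold of 5336 and 5589, and AP-1 genes called higher numbered 6 to 8. With a library left out the ranges were 5065 to 5269, 5346 to 5542 and 6 to 8. The AP-1 genes called higher were not always the same. MAFF was called in 3 alternatives, among them the filter of at least 1 CPM, where FOSB was not tested. FOSB also lost its call without shMEX3A replicate 3. The number of AP-1 genes called lower, 0 in the reported fit, was 1 without the low-count filter (BATF3) and 0 to 2 with a library left out. BATF3 was among them in every fit that tested it. MEX3A lay between -1.86 and -1.68 throughout, and between -1.77 and -1.68 with a library left out. For the AP-1 and list genes named, 511 values were recomputed: 504 gave the reported call, 2 lost it, 4 gained one and 1 called value turned sign, which was TIAL1 with GC and length offsets (0.0082). MAFF, not called in either fit, also turned sign with these offsets (-0.03). Under those offsets FOSL1, FOSL2, JUN, JUNB, JUND, FOS and FOSB remained called higher. Correlations of same-numbered libraries' deviations from their group means ran from -0.077 to 0.077, which gave no sign that replicate numbers pair the groups. Such values from 3 libraries per group cannot exclude a pairing. With the replicate block 10699 calls were shared with the unblocked fit, and no AP-1 gene changed its call. FOS, FOSB and BATF3 rest on few counts, and FOS and FOSB have the widest errors of the 9 tested AP-1 genes.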
